A study of Mus musculus with 4 samples.

Results

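Complement is a cascade of plasma proteins that tags microbes and dying cells for uptake. C1q, assembled from A, B and C chains, binds such surfaces and starts the classical pathway, whereas factor B (Cfb) and properdin (Cfp) build and stabilise the convertase of the alternative pathway. Fragments released on the way act on the receptors C3ar1 and C5ar1, Vsig4 binds fragments of C3 that coat a surface, and Cd55 takes convertases apart on the cell's own membrane. Macrophages are the main source of C1q in many tissues, and in the thymus they clear the thymocytes that die during selection.

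Here 9 complement genes, C1qa, C1qb, C1qc, Cfb, Cfp, C3ar1, C5ar1, Vsig4 and Cd55, were followed across the cell classes of the mouse thymus. They were taken by symbol from 55418 gene entries, and each symbol had a single entry. The series holds 4 single-cell RNA-seq libraries (10x, 3′ ends, unique molecular identifiers or UMIs) of sorted thymic cells on a C57BL/6 background. MAFIA mice, aged 5 weeks, carry the Csf1r-EGFP-NGFR/FKBP1A/TNFRSF6 transgene, in which the promoter of the Csf1 receptor drives EGFP and a drug-inducible death receptor, and GFP+ cells were sorted. Cd11cYFP mice, aged 9 weeks, carry Itgax-Venus, in which the promoter of the integrin CD11c drives a yellow fluorescent protein, and YFP+ cells were sorted. Each genotype has 2 libraries, and by the study's methods the MAFIA mice were female and the Cd11cYFP mice male, so that reporter, sex, age and library cannot be told apart. No treatment other than killing with CO2 is given. The methods describe 1 MAFIA mouse, so the libraries of that genotype may not be separate animals. Library is a term of the test, so p-values measure how differences between classes vary among the libraries used. That spread is estimated over all classes in 1 fit.

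MAFIA replicate 1 stood apart, with a median of 3980.5 UMIs per barcode against 15759 to 17493 in the others, and its barcodes were not placed in classes. When they were clustered with the other libraries, most fell in clusters where they were 4391 of 4438 and 964 of 1106 cells. The larger of these scored highest for neutrophil markers (1.474). Clusters mostly of this library took no name by rule, so 97.6% of its barcodes stayed unnamed. The classes therefore rest on MAFIA replicate 2 and Cd11cYFP replicates 1 and 2, with 23549 cells after filtering and 122222920 to 182740471 UMIs in the cells kept per library. Any pair of libraries shared 10 to 25 cell barcodes. YFP transcripts were found in 71.8% and 70.7% of barcodes of the Cd11cYFP libraries, and EGFP transcripts in 2.14% of those of MAFIA replicate 2, so the sequenced tags check the first label and hardly the second. Classes were named from marker genes that exclude the complement genes, which also took no part in clustering, and 89.0% of cells were named. They held 842 Timd4+ macrophages, 1763 Cx3cr1+ macrophages, 1003 monocytes, 2223 Cd209a+ dendritic cells (DCs), 4945 Xcr1+ DCs, 4749 Ccr7+ DCs, 1254 plasmacytoid DCs, 3176 B cells and 854 thymocytes or T cells, with 105 fibroblasts and 47 thymic epithelial cells. B cells and thymocytes serve below as the background for macrophage transcripts, since neither is known to make C1q. Levels are normalized CPM, a gene's UMIs relative to all UMIs summed over a class in a library after TMM scaling, and they count molecules, so they were not divided by gene length.

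In GRCm39 the C1q genes lie side by side on the minus strand of chromosome 4 in the order C1qb (chr4:136606009-136613511), C1qc (chr4:136616466-136620376) and C1qa (chr4:136623223-136626161), a span of 20153 bases. The other genes, also on the minus strand, are Cfb (chr17:35074852-35081559), C3ar1 (chr6:122823393-122833122), C5ar1 (chr7:15980668-15993465), Cd55 (chr1:130366469-130390926) and, on the X chromosome, Cfp (chrX:20791688-20797794) and Vsig4 (chrX:95290807-95337044). The 250 bases before the annotated start are given for 2 neighbouring genes whose levels moved together across classes, C1qb and C1qc, and for Vsig4, whose UMIs came mostly from a single class. The sequences are RefSeq's, on GRCm38.p6, minus strand, printed 5′ to 3′, and capitals mark GAGGAA, the core of the PU.1 motif, or its reverse complement TTCCTC.
C1qb (chr4:136886201-136886450): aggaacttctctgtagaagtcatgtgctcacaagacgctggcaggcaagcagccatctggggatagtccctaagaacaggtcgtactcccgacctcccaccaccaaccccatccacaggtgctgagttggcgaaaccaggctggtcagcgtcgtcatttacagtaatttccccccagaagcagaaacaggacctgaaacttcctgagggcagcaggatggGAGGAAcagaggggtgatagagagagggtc
C1qc (chr4:136892915-136893164): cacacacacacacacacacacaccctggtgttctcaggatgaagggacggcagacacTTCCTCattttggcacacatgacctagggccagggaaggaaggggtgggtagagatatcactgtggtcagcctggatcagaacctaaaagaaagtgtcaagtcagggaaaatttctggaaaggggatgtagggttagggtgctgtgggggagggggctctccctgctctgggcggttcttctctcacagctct
Vsig4 (chrX:96293439-96293688): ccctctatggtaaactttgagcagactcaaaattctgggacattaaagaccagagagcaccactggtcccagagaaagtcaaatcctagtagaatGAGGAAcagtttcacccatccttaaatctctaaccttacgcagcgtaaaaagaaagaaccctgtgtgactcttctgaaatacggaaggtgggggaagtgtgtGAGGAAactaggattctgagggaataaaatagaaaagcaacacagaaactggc
The motif begins 30 bases before the start of C1qb, 193 before that of C1qc, and 155 and 53 before that of Vsig4. On either strand it was present in 23.3% of all 32851 RefSeq windows of this length, so a match is a description and not a site. The windows of Cfp, C3ar1, C5ar1 and Cd55 did not hold these letters, and those of C1qa and Cfb were not used here.

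C1q was the most abundant of these complement transcripts in thymic macrophages, with no difference between the macrophage classes past the threshold, and the 3 chains together made up 2.04% ± 0.166 (SD, n = 3 libraries) of all UMIs of Timd4+ macrophages and 1.84% ± 0.237 of those of Cx3cr1+ macrophages. C1qa was at 7723, 7462 and 6499 normalized CPM in the Timd4+ macrophages of MAFIA replicate 2 and Cd11cYFP replicates 1 and 2, and at 9579, 8872 and 7020 in the Cx3cr1+ macrophages of the same libraries. The ranges of the classes overlapped, and their order depended on the measure. Timd4+ macrophages were the lower class for C1qa in every library after TMM scaling. Unscaled and pooled over libraries, C1qa was at 8124 CPM in them and 7972 CPM in Cx3cr1+ macrophages. The unscaled sum of the 3 chains, which is not C1qa alone, was higher in Timd4+ macrophages in every library. It was at 22187, 20252 and 18884 CPM against 20527, 18748 and 15840. C1qb was at 5867 ± 1028 and 6000 ± 787 (SD, n = 3), and C1qc at 5348 ± 553 and 5019 ± 478, in the same order of classes.

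**Figure D1:**
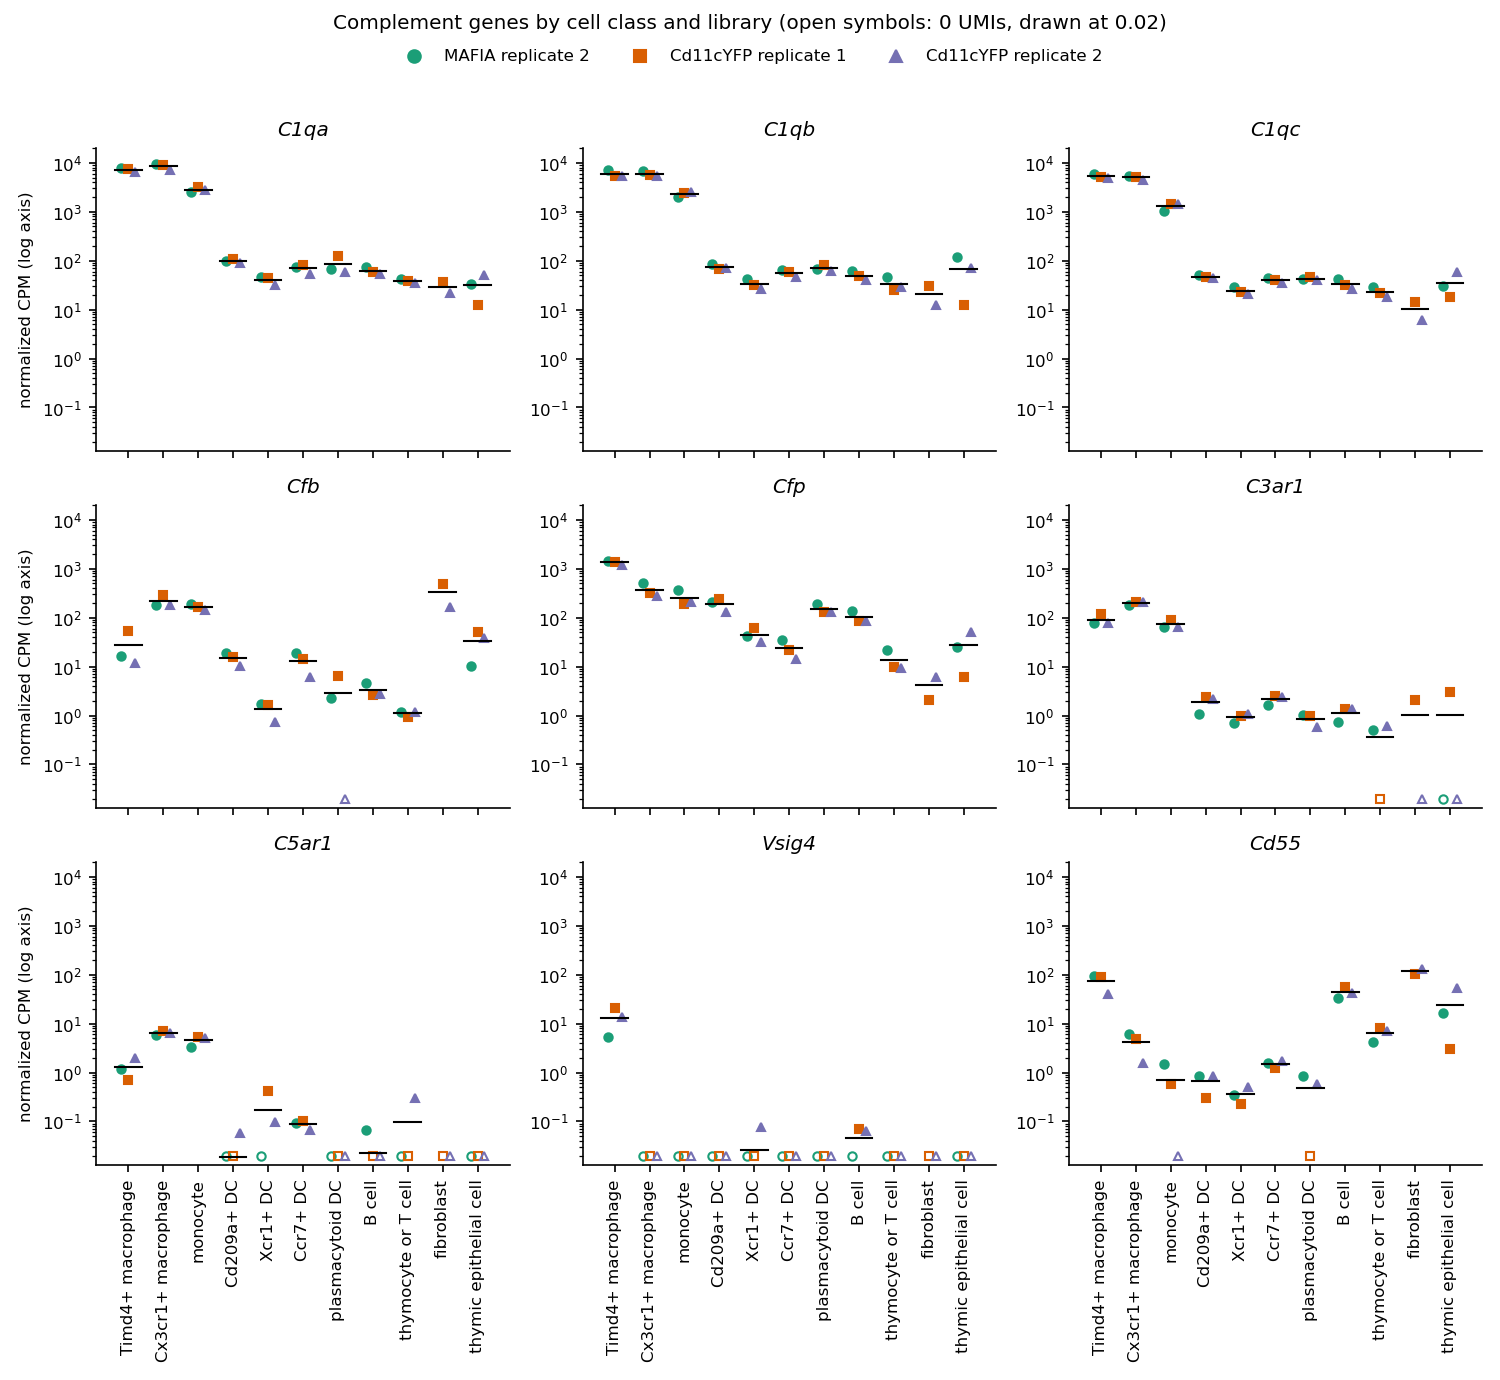
Normalized CPM (log axis) of each complement gene in 11 cell classes. Each symbol is a library, bars are means over libraries and open symbols are libraries with 0 UMIs, drawn at 0.02; C1qa falls from a mean of 2823 in monocytes to 98.5 in Cd209a+ DCs, and Vsig4 has its highest values in Timd4+ macrophages.

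Between Timd4+ and Cx3cr1+ macrophages, 3 complement genes were higher in the Timd4+ class (Cfp, Vsig4 and Cd55), 3 were lower (C3ar1, C5ar1 and Cfb) and the 3 C1q chains did not pass the test (edgeR quasi-likelihood test, library as a block, adjusted p under 0.05 over 18481 genes). Of all genes tested, 12.5% were higher and 16.5% lower in this comparison. For C1qa the log2 difference was -0.23 (SE 0.18, edgeR adjusted p = 0.409), for C1qb -0.04 (SE 0.22, edgeR adjusted p = 0.964) and for C1qc 0.09 (SE 0.16, edgeR adjusted p = 0.747). None of these passed under any of 13 alternative settings, and the sign of C1qa and C1qb turned under some of them.

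The cells named monocytes carried C1q too, at a lower level and unevenly from cell to cell. C1qa was at 2555, 3142 and 2773 normalized CPM in the monocytes of the 3 libraries in the order above, below every macrophage value. An unnamed cluster of 227 cells carried both monocyte and neutrophil genes. It scored 3.3 for monocyte markers, above the 1.784 of the cluster that made up the monocyte class, and 3.438 for neutrophil markers. C1qa was lower in this unnamed cluster, so its level in the monocyte class does not hold for all cells with monocyte genes. It was at 270, 557 and 577 CPM there, against 2371, 2772 and 2509 CPM in monocytes, the last library with 13 such cells. All 3 chains were lower in monocytes than in either macrophage class, by 1.35 (SE 0.18), 1.30 (SE 0.22) and 2.02 (SE 0.17) on the log2 scale for C1qa, C1qb and C1qc against Timd4+ macrophages, and by 1.57 (SE 0.19), 1.33 (SE 0.22) and 1.93 (SE 0.17) against Cx3cr1+ macrophages. The largest edgeR adjusted p among these 6 tests was 3.52e-05. The difference of C1qb between Cx3cr1+ macrophages and monocytes did not pass when MAFIA replicate 1 was clustered with the other libraries (1.11, edgeR adjusted p = 0.0759).

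Single cells were compared after each had been reduced at random to 3000 UMIs, a depth that every cell reached. At that depth all 3 chains were found in 100% of Timd4+ macrophages and 98.97% ± 0.970 (SD, n = 3) of Cx3cr1+ macrophages. Of monocytes, 58.0% ± 6.91 showed all 3 chains and 23.1% ± 2.61 showed none. The median monocyte held 9, 12 and 14 C1q UMIs in MAFIA replicate 2 and Cd11cYFP replicates 1 and 2, against 60, 56 and 50 in Cx3cr1+ macrophages and 67, 61 and 57 in Timd4+ macrophages. Monocytes spread widely: 26.6%, 25.3% and 41.8% of them reached the 5th percentile of the Cx3cr1+ macrophages of their own library (26, 29 and 19 UMIs). The same levels were reached by 0.294% ± 0.125 of Cd209a+ DCs and 0.0899% ± 0.0882 of B cells.

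**Figure D2:**
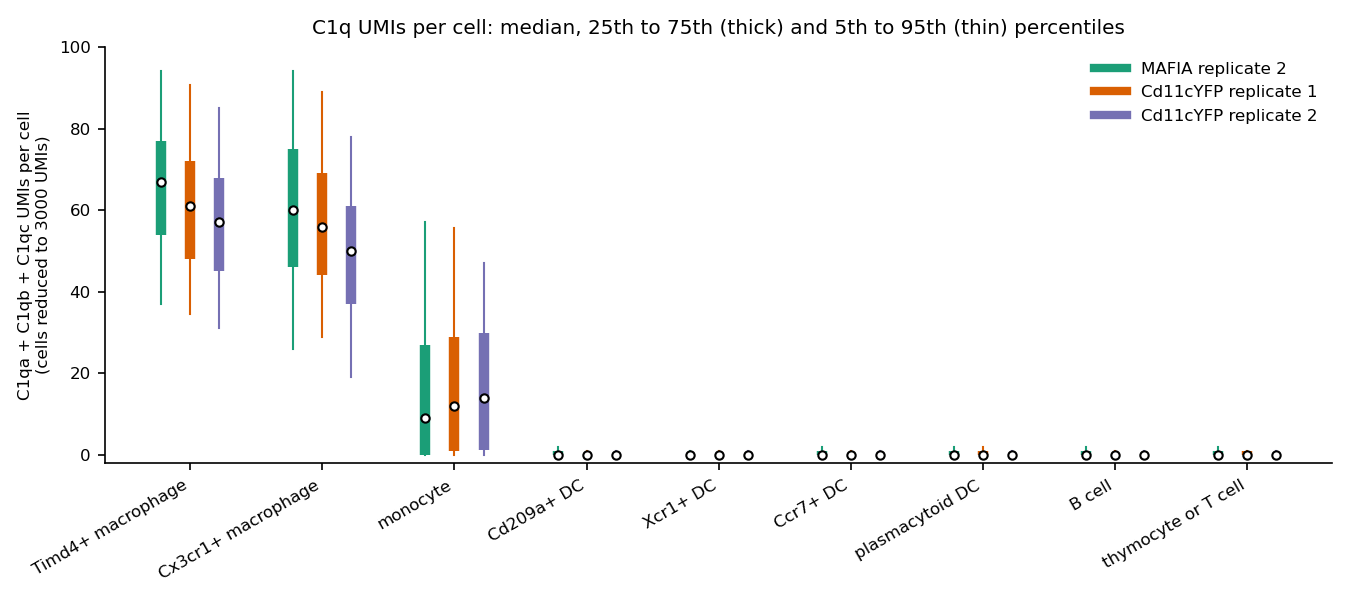
Sum of C1qa, C1qb and C1qc UMIs per cell after reduction to 3000 UMIs, by class and library. Circles are medians, thick bars the 25th to 75th and thin bars the 5th to 95th percentiles of cells; macrophage medians run from 50 to 67, monocyte medians from 9 to 14, and the medians of the other classes are 0.

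In all other classes C1q was far below monocytes and near its level in B cells and thymocytes. C1qa was at 62.3 ± 11.8 normalized CPM in B cells and 38.4 ± 3.63 in thymocytes or T cells, and at 98.5 ± 7.88 in Cd209a+ DCs, 84.7 ± 36.5 in plasmacytoid DCs, 69.9 ± 13.7 in Ccr7+ DCs and 41.1 ± 7.68 in Xcr1+ DCs (SD, n = 3). The share of cells with a C1qa UMI at 3000 UMIs was 11.9% ± 3.17 in B cells and 13.1% ± 3.43 in thymocytes, and it ran from 7.62% ± 1.88 in Xcr1+ DCs to 13.2% ± 6.74 in plasmacytoid DCs, so these shares were read as background. Cd209a+ DCs nevertheless stood above every B cell and thymocyte value in level, at 99.5, 106 and 90.2 normalized CPM against at most 75.7, and in the share of cells with all 3 chains at 3000 UMIs, at 2.09%, 1.70% and 1.80% against at most 1.37%. Their cells were deeper (median 18224 to 22214 UMIs against 10577.5 to 12777 in B cells), and the part of depth in the level was not tested. Within Cd209a+ DCs, 2 clusters held 107 and 128 CPM of C1qa over all libraries and the other 34.4 CPM. Ccr7+ DCs stood above Xcr1+ DCs in every chain, by 0.76 (SE 0.19), 0.76 (SE 0.22) and 0.72 (SE 0.17) on the log2 scale for C1qa, C1qb and C1qc (edgeR adjusted p = 0.000899, 0.00470 and 0.000648). Both classes overlapped with B cells and thymocytes, the median UMIs per cell were 14065.5 to 17264.5 in Ccr7+ DCs and 21406 to 26567 in Xcr1+ DCs, and the part of depth in this difference was not tested. For C1qb the call was lost without the replicate block (0.74, edgeR adjusted p = 0.0669) and without Cd11cYFP replicate 2 (0.74, edgeR adjusted p = 0.0838).

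The chains were not in the same proportion in every class. C1qc made up 28.8%, 28.6% and 29.7% of the C1q UMIs of Timd4+ macrophages in MAFIA replicate 2 and Cd11cYFP replicates 1 and 2, 24.9%, 25.9% and 26.6% of those of Cx3cr1+ macrophages, and 18.9%, 20.4% and 21.1% of those of monocytes. The 3 ranges did not overlap. The share of C1qc was higher in Timd4+ than in Cx3cr1+ macrophages by 3.22 ± 0.661 percentage points within a library and higher in Cx3cr1+ macrophages than in monocytes by 5.68 ± 0.239 points (SD, n = 3; exact sign-flip test, two-sided, p = 0.25 each, the smallest that 3 pairs allow). C1qa made up 39.3% ± 2.38 in Timd4+ and 43.4% ± 1.82 in Cx3cr1+ macrophages, lower in the Timd4+ class in each library. In B cells the shares of C1qa, C1qb and C1qc were 42.9% ± 1.15, 34.1% ± 0.607 and 23.0% ± 0.942, and in Xcr1+ DCs 41.6% ± 3.04, 33.8% ± 2.24 and 24.5% ± 1.40 (SD, n = 3).

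**Figure D3:**
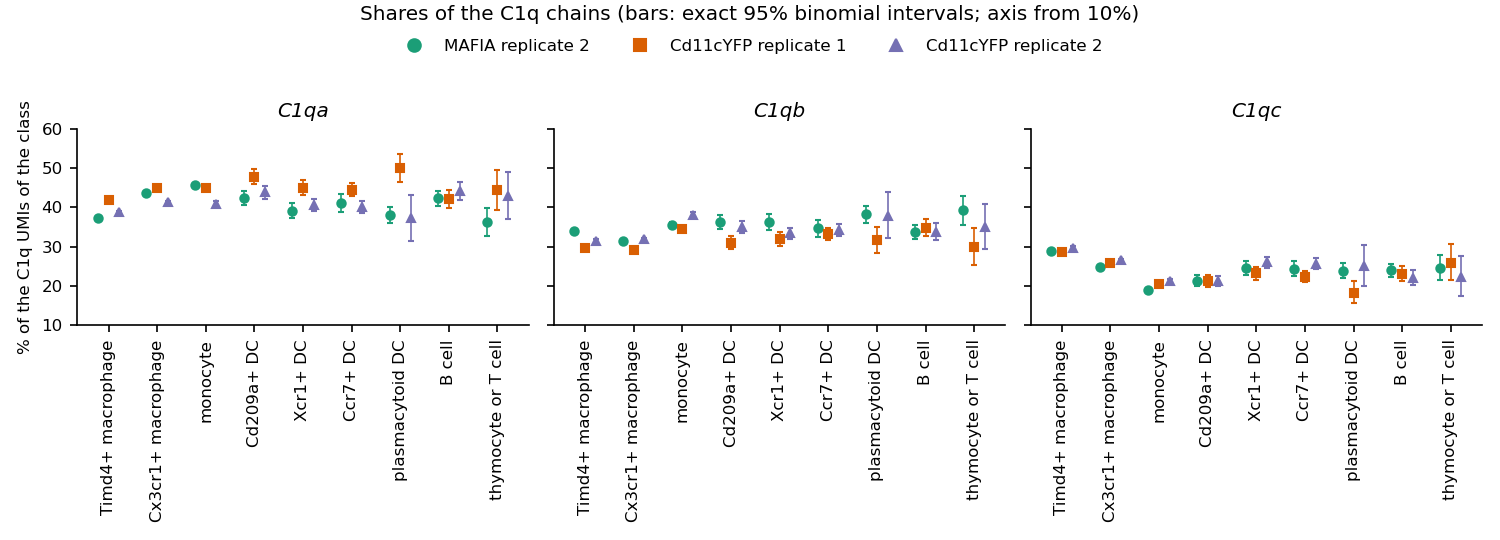
Share (%) of each chain in the C1q UMIs of a class, by library; bars are exact 95% binomial intervals, which cover counting error only, and the axis starts at 10%. The C1qc share falls from 28.6 to 29.7% in Timd4+ macrophages to 24.9 to 26.6% in Cx3cr1+ macrophages and 18.9 to 21.1% in monocytes.

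Factor B, the protease subunit of the alternative convertase, was higher in Cx3cr1+ macrophages and monocytes than in Timd4+ macrophages. Cfb was at 178, 295 and 183 normalized CPM in the Cx3cr1+ macrophages of MAFIA replicate 2 and Cd11cYFP replicates 1 and 2, at 193, 162 and 141 in monocytes and at 16.6, 52.4 and 12.0 in Timd4+ macrophages. The Timd4+ values lay below all others, and Cd11cYFP replicate 1 was the highest library in both macrophage classes. Cfb was lower in Timd4+ than in Cx3cr1+ macrophages by a log2 difference of -3.14 (SE 0.34, edgeR adjusted p = 2.90e-08) and lower than in monocytes by -2.75 (SE 0.34, edgeR adjusted p = 1.79e-07). Cx3cr1+ macrophages and monocytes differed by 0.39 (SE 0.30, edgeR adjusted p = 0.416). The unnamed cluster with both monocyte and neutrophil genes held 313, 335 and 238 CPM of Cfb in the same order of libraries. That was above each named cluster of macrophages, monocytes and Cd209a+ DCs in the same library. Among DCs, Cfb was higher in Ccr7+ than in Xcr1+ cells by 3.23 (SE 0.39, edgeR adjusted p = 5.24e-08), from 1.75, 1.67 and 0.752 to 19.0, 14.4 and 6.27 normalized CPM, a level at which 2.37% ± 1.03 of Ccr7+ DCs and 0.607% ± 0.221 of B cells held a UMI at 3000 UMIs. Fibroblasts had the highest mean, at 491 and 165 normalized CPM in the 2 Cd11cYFP libraries that held enough of them, a range that overlapped with Cx3cr1+ macrophages and monocytes.

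Properdin ran the other way between the macrophage classes and was the most widely spread member of the alternative pathway. Cfp was at 1435, 1372 and 1220 normalized CPM in Timd4+ macrophages, at 518, 323 and 276 in Cx3cr1+ macrophages and at 364, 187 and 212 in monocytes, in the same order of libraries. The Timd4+ values stood clear of the others, while Cx3cr1+ macrophages and monocytes overlapped. Cfp was higher in Timd4+ than in Cx3cr1+ macrophages by 1.91 (SE 0.25, edgeR adjusted p = 7.81e-07) and than in monocytes by 2.45 (SE 0.26, edgeR adjusted p = 8.13e-09). Between Cx3cr1+ macrophages and monocytes the difference of 0.55 (SE 0.25, edgeR adjusted p = 0.121) did not pass, although 4 of 12 alternative settings called it. At 3000 UMIs 93.5% ± 3.47 of Timd4+ macrophages, 53.6% ± 11.0 of Cx3cr1+ macrophages and 38.1% ± 8.19 of monocytes held a Cfp UMI, against 4.32% ± 3.03 of thymocytes. Cd209a+ DCs (191 ± 53.8 normalized CPM), plasmacytoid DCs (151 ± 34.0) and B cells (102 ± 27.7) also stood above thymocytes (13.6 ± 6.85), without overlap between libraries. Cx3cr1+ macrophages exceeded Cd209a+ DCs by 0.93 (SE 0.25, edgeR adjusted p = 0.00295), a call that was lost without the replicate block (0.96, edgeR adjusted p = 0.0529). Ccr7+ DCs were below Xcr1+ DCs by a log2 difference of -1.01 (SE 0.25, edgeR adjusted p = 0.00130).

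The anaphylatoxin receptors were both higher in Cx3cr1+ macrophages. C3ar1, the receptor of C3a, was at 182, 211 and 207 normalized CPM in Cx3cr1+ macrophages, 78.0, 118 and 79.2 in Timd4+ macrophages and 65.6, 88.0 and 64.9 in monocytes of MAFIA replicate 2 and Cd11cYFP replicates 1 and 2. Cx3cr1+ macrophages stood above both other classes, whose ranges overlapped. The log2 difference between Timd4+ and Cx3cr1+ macrophages was -1.14 (SE 0.15, edgeR adjusted p = 5.17e-07), and Cx3cr1+ macrophages exceeded monocytes by 1.46 (SE 0.15, edgeR adjusted p = 2.64e-08). Timd4+ macrophages and monocytes differed by 0.32 (SE 0.15, edgeR adjusted p = 0.101), which passed under 5 of 13 alternatives. No class outside these 3 had a mean above 2.18 normalized CPM, so C3ar1 separated macrophages and monocytes from DCs (Cx3cr1+ macrophages against Cd209a+ DCs 6.73, SE 0.20, edgeR adjusted p = 1.94e-19).

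C5ar1, the receptor of C5a, was scarce. The Cx3cr1+ macrophages held 223 C5ar1 UMIs in 151 of 1763 cells, the Timd4+ macrophages 17 UMIs in 16 of 842 cells and the monocytes 69 UMIs in 36 of 1003 cells. Its level was 5.74, 7.10 and 6.37 normalized CPM in Cx3cr1+ macrophages, 1.18, 0.699 and 1.95 in Timd4+ macrophages and 3.31, 5.35 and 4.96 in monocytes. Timd4+ macrophages were below Cx3cr1+ macrophages by a log2 difference of -2.34 (SE 0.52, edgeR adjusted p = 0.00122) and below monocytes by -1.82 (SE 0.57, edgeR adjusted p = 0.0134). The second call was lost without Cd11cYFP replicate 1 (edgeR adjusted p = 0.148), without Cd11cYFP replicate 2 (edgeR adjusted p = 0.0694) and with count splitting, where classes were defined on a random part of the UMIs and tested on the rest (0.05). Cx3cr1+ macrophages and monocytes did not differ past the threshold (0.52, SE 0.44, edgeR adjusted p = 0.470). Among the clusters of macrophages, monocytes and Cd209a+ DCs and their unnamed neighbours, the highest level over all libraries pooled was in an unnamed cluster of 227 cells that carried both monocyte and neutrophil genes, with 31.0 CPM in the 176 cells of MAFIA replicate 2, 6.21 CPM in the 38 of Cd11cYFP replicate 1 and 0 in the 13 of Cd11cYFP replicate 2. That rank rests on MAFIA replicate 2, since in Cd11cYFP replicate 1 other clusters reached up to 9.82 CPM.

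**Figure D4:**
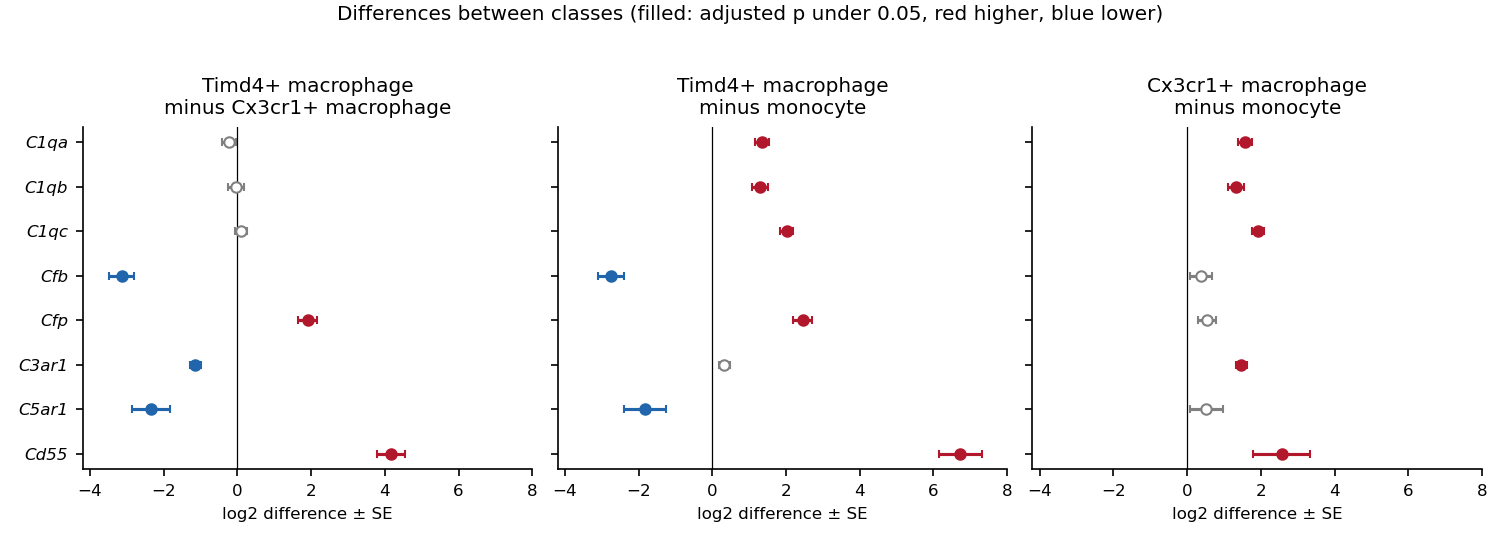
Log2 differences (± SE) of the complement genes between Timd4+ macrophages, Cx3cr1+ macrophages and monocytes, from edgeR on sums of 3 libraries. Filled points passed an adjusted p of 0.05, red above and blue below 0, and Vsig4 is not drawn because it had 0 UMIs in Cx3cr1+ macrophages and monocytes.

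Vsig4, a receptor for C3 fragments found on resident macrophages such as those of the liver, came mostly from few cells of the Timd4+ class. Timd4+ macrophages held 37, 88 and 42 Vsig4 UMIs in MAFIA replicate 2 and Cd11cYFP replicates 1 and 2, of 37, 103 and 48 in all cells of these libraries. Cx3cr1+ macrophages and monocytes held 0 in every library. Pooled over libraries, Timd4+ macrophages were at 12.97 CPM, at least 161-fold higher than Cx3cr1+ macrophages and at least 69.1-fold higher than monocytes, each set at a floor of 3 counts over the class. The edgeR adjusted p was 2.25e-06 against Cx3cr1+ macrophages and 9.06e-06 against monocytes, whereas DESeq2 gave adjusted p = 0.309 and 0.385. Vsig4 passed the low-count filter only through the Timd4+ class, so its edgeR calls here and in the counts of genes called add no support to these UMI counts. The UMIs came from 31 of 842 Timd4+ macrophages, or 8 of 356, 13 of 265 and 10 of 221 by library, with 5.39 UMIs per such cell on average and up to 24 in a single cell. The 5 highest cells of a library gave 81.0 to 91.9% of its Vsig4 UMIs. In these 31 cells Timd4 was at 410 CPM, Cfp at 1542 and Cd55 at 104, against 433, 1507 and 88.4 CPM in the other 811 Timd4+ macrophages. C3ar1 was lower in them in each library, at 53.2 against 84.1, 76.4 against 137 and 51.5 against 90.6 CPM, differences that were not tested.

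Cd55, which protects the cell's own membrane, had the largest log2 difference between the macrophage classes among those of the 9 genes that all 3 libraries detected in both. It was at 94.3, 87.8 and 41.2 normalized CPM in Timd4+ macrophages and at 6.14, 4.90 and 1.53 in Cx3cr1+ macrophages of MAFIA replicate 2 and Cd11cYFP replicates 1 and 2. Cd11cYFP replicate 2 was the lowest in both, and the classes did not overlap. The log2 difference was 4.17 (SE 0.38, edgeR adjusted p = 1.05e-09), and against monocytes, with 10 UMIs in 1003 cells, it was 6.73 (SE 0.58, edgeR adjusted p = 1.49e-10). It was widely detected, with 1146 UMIs in 489 of 842 Timd4+ macrophages and 4.01% of them in the 5 highest cells. Cx3cr1+ macrophages also exceeded monocytes, by 2.56 (SE 0.77, edgeR adjusted p = 0.0156), but not without MAFIA replicate 2 (edgeR adjusted p = 0.0632) or Cd11cYFP replicate 1 (edgeR adjusted p = 0.238), and with count splitting the difference was -0.11. Among the 3 Cx3cr1+ clusters, Cd55 ran from 1.21 to 6.20 CPM over all libraries. Fibroblasts (104 and 128 normalized CPM in Cd11cYFP replicates 1 and 2) and B cells (33.2, 55.4 and 41.2) carried Cd55 as well. The summed B cell markers were at 124 to 152 CPM in Timd4+ macrophages, with 6 or 7 of 7 markers detected. They were at 199 to 244 CPM in Cx3cr1+ macrophages, with 7 of 7. Any part of B cell or fibroblast RNA in the Cd55 of macrophages was not tested. In Ccr7+ DCs Cd55 was above Xcr1+ DCs by 1.93 (SE 0.57, edgeR adjusted p = 0.00482) at only 1.51 ± 0.238 normalized CPM, and the call was lost without likely doublets (1.51, edgeR adjusted p = 0.0900).

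**Figure D5:**
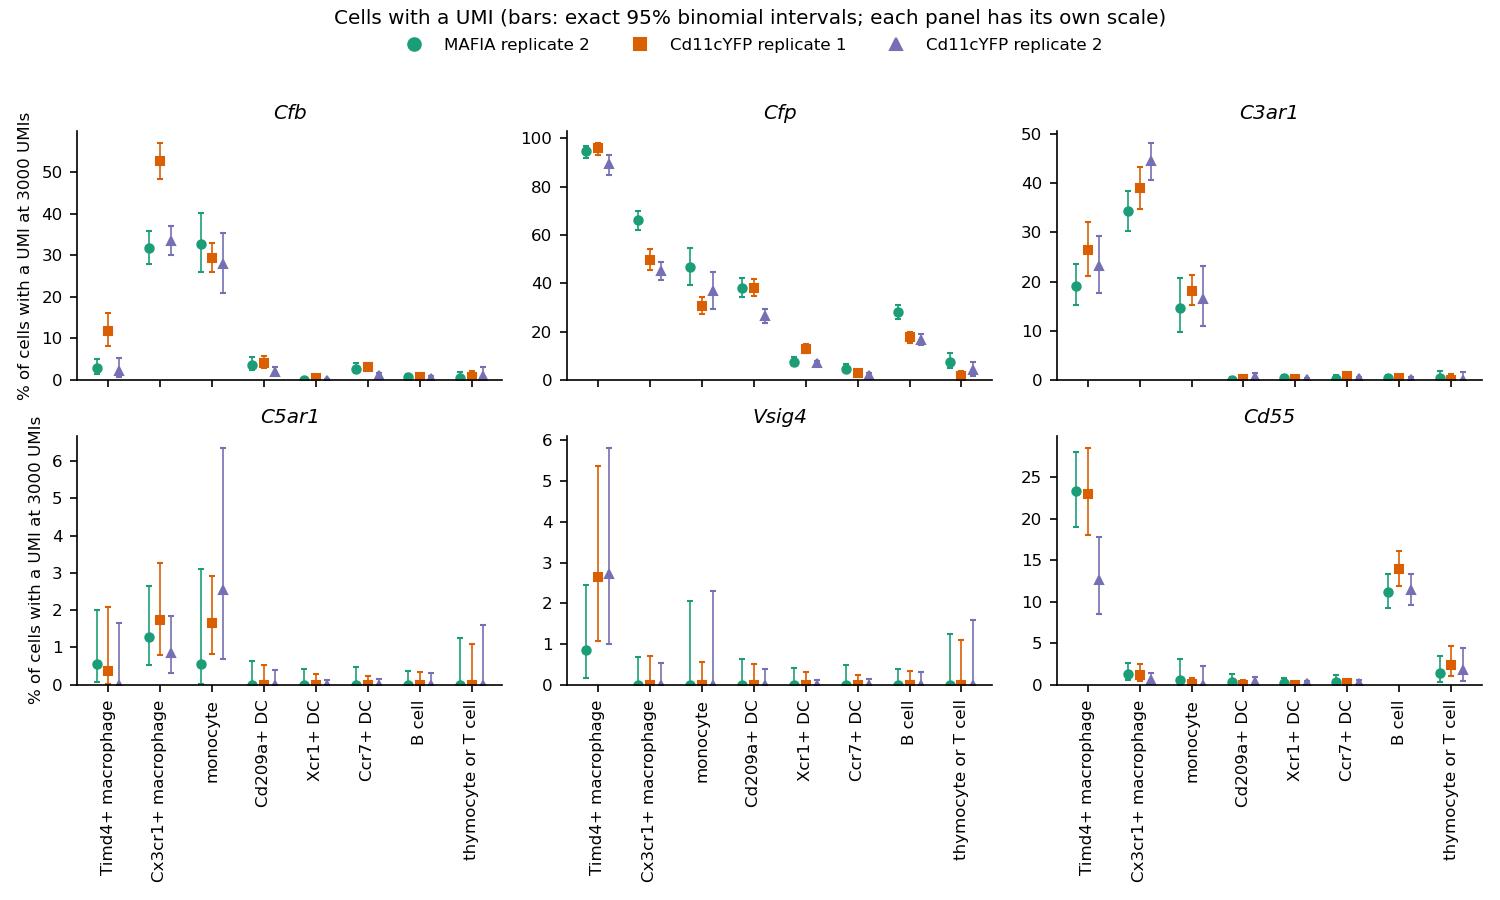
Share (%) of cells with a UMI after reduction to 3000 UMIs, by class and library, with exact 95% binomial intervals; each panel has its own scale. Cfp was found in 89.6 to 96.2% of Timd4+ macrophages, Cd55 in 12.7 to 23.3% and Vsig4 in 0.843 to 2.71%.

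The Timd4+ class held 2 clusters, the smaller of which, with 251 cells and 189 of them from MAFIA replicate 2, was led by type I interferon genes. Over all libraries, Cfp was at 1558 CPM in it and 1485 CPM in the larger cluster, Cd55 at 85.0 and 90.8, C1qa at 8473 and 7968 and C3ar1 at 81.7 and 107. Vsig4 was higher in the smaller cluster in each library, at 8.06 against 3.50, 33.0 against 22.3 and 30.9 against 12.8 CPM in MAFIA replicate 2 and Cd11cYFP replicates 1 and 2. Those values rest on 26, 12 and 12 UMIs in the smaller cluster and 11, 76 and 30 in the larger. The smaller cluster held 31 cells in each Cd11cYFP library, so few cells can set this order, which was not tested. The calls of Cfp, Cd55, C3ar1, C5ar1 and Cfb between the macrophage classes stood under each of the 13 alternatives. That of Vsig4 was lost under DESeq2. Its calls under the other alternatives add no support, since it passed the filter only through the Timd4+ class. An unnamed cluster of 256 cells with markers of both macrophage classes had C1qa at 4315 CPM, below each cluster of these classes, and Cfp at 414, Cfb at 83.0 and Cd55 at 17.8 CPM. Its median was 31340 UMIs per cell, against 13950 to 27670 in the clusters of these classes. Of all unnamed cells, 19.01% were likely doublets, against 1.9% of Timd4+ and 4.141% of Cx3cr1+ macrophages. The part of doublets in its levels was not tested.

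Against monocytes, 6 of the 9 genes were higher and 2 lower in Timd4+ macrophages (18.5% and 19% of all genes tested), and 5 were higher and none lower in Cx3cr1+ macrophages (12.4% and 9.36% of all genes). Against Cd209a+ DCs, the conventional DCs most like macrophages, 8 of the 9 were higher in Cx3cr1+ macrophages and none lower (21.7% and 18.7% of all genes), Vsig4 having 0 UMIs in both classes. In Ccr7+ against Xcr1+ DCs 6 were higher and 1 lower (29% and 25.9% of all genes, with the median of all genes at 0.109 on the log2 scale), but the C1q and C3ar1 levels there were near those of B cells. The difference between Timd4+ and Cx3cr1+ macrophages was also compared between reporters: 0 of the 9 genes passed in edgeR or DESeq2 and 0 had an unadjusted p under 0.05 in edgeR, and 14 of 18481 genes passed in edgeR (0.0758%). The MAFIA arm is 1 library, assumed to vary like the other sums, so these counts do not show that the reporters were alike.

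Of 46 other complement genes in 4 lists (initiators of the classical and lectin pathways, alternative and terminal components, regulators, receptors), 36 passed the low-count filter over all classes and were tested. In Timd4+ against Cx3cr1+ macrophages 8 were higher and 6 lower (12.5% and 16.5% of all genes tested), the 6 lower being near that share. The 36 had a median log2 difference of -0.22, against -0.06 over all genes. That median rests in part on 8 genes with at most 2 UMIs in these classes together, whose fitted differences have no useful precision. The initiators gave 4 higher and 0 lower of 11, the alternative and terminal components 1 and 1 of 6, the regulators 1 and 1 of 10 and the receptors 2 and 4 of 9. Fcna (ficolin A, a lectin that recognises sugars) was at 256, 153 and 260 normalized CPM in Timd4+ and 14.2, 4.70 and 5.89 in Cx3cr1+ macrophages of MAFIA replicate 2 and Cd11cYFP replicates 1 and 2, a log2 difference of 4.87 (SE 0.25, edgeR adjusted p = 6.58e-14). C6, a component of the membrane attack complex, was higher by 4.63 (SE 0.26, edgeR adjusted p = 1.73e-12), with values of 26.9, 162 and 75.3 normalized CPM in Timd4+ macrophages that spread widely between libraries. C2 (1.52) and C4b (1.57), which form the classical convertase, were higher too, as were Cd59a (2.34), which blocks the membrane attack complex, and Lrp1 (3.39), an endocytic receptor. The lower genes included the receptor chain Itgax (-1.80), whose promoter drives the Cd11cYFP reporter, and Cd93 (-2.87). C3 itself, the central component, was at 758, 524 and 267 normalized CPM in Timd4+ and 1323, 885 and 730 in Cx3cr1+ macrophages.

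Monocytes differed from the macrophages in several of the other complement genes. Of the 36 genes, 10 were higher and 4 lower in Timd4+ macrophages than in monocytes (18.5% and 19% of all genes). In Cx3cr1+ macrophages 9 were higher and 3 lower (12.4% and 9.36% of all genes), the 3 lower being near that share. C2 was at 6.04 ± 3.97 normalized CPM in monocytes, 73.0 ± 54.6 in Cx3cr1+ and 182 ± 59.3 in Timd4+ macrophages (SD, n = 3). C3 was higher in Cx3cr1+ macrophages than in monocytes by 1.83 (SE 0.31, edgeR adjusted p = 6.15e-05), and C5ar2, the second C5a receptor, by 1.54 (SE 0.41, edgeR adjusted p = 0.00717). Itgam, the alpha chain of complement receptor 3, was instead highest in monocytes, at 49.99 ± 12.03 normalized CPM against 9.34 ± 1.35 and 3.73 ± 0.202 in Cx3cr1+ and Timd4+ macrophages, with log2 differences of -2.40 (SE 0.24, edgeR adjusted p = 1.52e-08) and -3.71 (SE 0.29, edgeR adjusted p = 2.82e-11). Against Cd209a+ DCs 12 of the 36 were higher and 4 lower in Cx3cr1+ macrophages (21.7% and 18.7% of all genes). The higher genes included C5ar2 (7.02), C4b (6.01), Colec12 (5.96) and C3 (5.81). Between Ccr7+ and Xcr1+ DCs 11 of the 36 were higher and 6 lower (29% and 25.9% of all genes), the 11 higher being near that share. The largest difference among those named was in Clu, an inhibitor of the terminal complex, at 88.0, 83.8 and 121 normalized CPM in Ccr7+ and 0.750, 0.646 and 1.43 in Xcr1+ DCs (6.77, SE 0.38, edgeR adjusted p = 1.24e-14).

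The genes whose levels were most like those of the complement genes were ranked by Pearson's r of log2(normalized CPM + 1) over 32 sums of class and library, which share libraries and are given as a description. For the mean of the C1q chains they were Ms4a7 (0.98), Tfec (0.98), Tmem273 (0.98), Msr1 (0.97) and Csf3r (0.97). C3ar1 had the same leading gene, Ms4a7 (0.97), followed by Tfec (0.97) and Msr1 (0.96). The nearest genes to Cfp were Hpgds (0.91), Lyn (0.91) and Ehd4 (0.91), to Cfb Dram1 (0.91), Ggh (0.90) and Rin2 (0.90), to C5ar1 Creg2 (0.94), Gm44206 (0.93) and Msr1 (0.92), and to Cd55 Cnrip1 (0.88), Plpp3 (0.88) and Lrrn3 (0.87). Those of Vsig4 were Pld5 (0.996), G730013B05Rik (0.991) and Gm34312 (0.985), a likeness that rests on its values in Timd4+ macrophages, the other sums being at or near 0.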

How the data were processed

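Thymic GFP+ or YFP+ cells of 4 libraries were profiled with the 10x 3′ v3 chemistry. The values deposited are UMI counts, not normalized, for each gene in each barcode. The labels name bcl2fastq 2.20, STAR 2.7.9a, Cell Ranger and the builds GRCm39 and mm39, whereas the study's methods name mm10, so gene positions are those of the GENCODE annotation of GRCm39 for the files' identifiers, and RefSeq windows keep their own build. Collapsing UMIs removes PCR duplicates, and a 3′ count does not depend on gene length.

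Barcodes with 1000 to 7000 genes and at most 10% mitochondrial UMIs were kept, after the study's methods (Python 3.11.15, scanpy 1.11.5). After scaling every cell to 10000 counts and a log transform, 2000 variable genes without the complement genes, EGFP and YFP gave 70 principal components, a graph with 3 neighbours per library and Leiden clusters at resolution 0.15. Each cluster was clustered again on 30 components at resolution 0.5. A cluster was named when the mean log2 fold of a marker list, with an offset of 10 CPM, was at least 1 and no other list reaching 1 came to 0.6 times that value. Doublets were kept in the main classes and removed in an alternative, at 0.8% of cells per 1000 barcodes. The members and lists were chosen with earlier results of these data known.

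Raw counts were summed per class and library where at least 10 cells were present (32 sums of 264870 to 66229638 UMIs), and edgeR 4.0.16 (quasi-likelihood F test, TMM, its low-count filter, terms for class and library) tested 18481 genes with Benjamini-Hochberg adjustment. The library term pairs classes of the same library, which are the same animals. Every complement gene is named in every comparison, and other complement genes are named where they passed, had the same sign in all 3 libraries and at least 50 UMIs, up to 8 per comparison by size. On simulated counts for Timd4+ against Cx3cr1+ macrophages the test recovered 24 of 78 genes changed 1.5-fold, 43 of 59 changed 2-fold and 59 of 63 changed 4-fold, with 8 of 17697 unchanged genes called. DESeq2 1.42.0, other filters, other class definitions and leaving out each library were alternatives. Shares carry exact 95% binomial intervals, and intervals and floors (3 counts) cover counting error only. MAFIA replicate 1 entered no comparison.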

Additional observations from a re-analysis of the deposited data

Results flagged for a closer look

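Signals were found in MAFIA replicate 1, the library that entered no comparison, above a floor of 3 counts, for 8 of the 9 genes. Over its 5493 kept barcodes and 26787417 UMIs, C1qa was at 1827 CPM, C1qb at 1614, C1qc at 1092, Cfp at 285, Cfb at 48.6, C3ar1 at 27.7, Cd55 at 12.2 and C5ar1 at 1.34, and Vsig4 had 2 UMIs. The whole of MAFIA replicate 2 gave 1686, 1330, 1053, 243, 38.4, 29.1, 11.8 and 1.47 CPM for the same genes in the same order. For C1qa the share of cells differed more than the level: 99.5% of the barcodes of MAFIA replicate 1 held a C1qa UMI, against 59.4% in MAFIA replicate 2, although the median barcode of MAFIA replicate 1 was shallower (3980.5 against 17493 UMIs). No group had 4 or more libraries, so no single value was compared with the spread of its group.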

How the results depend on the processing

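Of 570 recomputed log2 differences of the complement genes, 529 kept their direction and side of the threshold, 17 reversed, 12 lost and 12 gained a call. The number of complement genes called stayed within 1.5 times in all 68 recomputations, as did 57 of 68 counts of all genes called. Reversals were all of differences that had not passed, apart from C5ar1 between Timd4+ macrophages and monocytes (0.0497) and Cd55 between Cx3cr1+ macrophages and monocytes (-0.11), both with count splitting. Between Timd4+ and Cx3cr1+ macrophages C1qb turned with DESeq2 (0.0251), with macrophages and monocytes alone in the fit (0.0388), with count splitting (0.0205) and with MAFIA replicate 1 clustered together with the others (0.30), as did C1qa with the last (0.11). Between Cx3cr1+ macrophages and monocytes C5ar1 turned with MAFIA replicate 1 clustered together (-0.38) and with the mixed monocyte and neutrophil cluster added (-0.39). Between Ccr7+ and Xcr1+ DCs C5ar1 turned without Cd11cYFP replicate 1 (0.17, in a range from -1.26 to 0.17 with a library left out), with 1 clustering round (0.78) and with MAFIA replicate 1 clustered together (1.05). The reporter difference turned for C1qc (-0.0127) and Cfb (0.99) with 1 clustering round, for C3ar1 with MAFIA replicate 1 clustered together (0.0696), and for C1qc (-0.0114) and C5ar1 (-1.59) without the interferon cluster. The cause was not tested.

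Genes called between Timd4+ and Cx3cr1+ macrophages were 5353, and 3049 to 5038 with a library left out (the fewest without Cd11cYFP replicate 2). Between Cx3cr1+ macrophages and monocytes they were 4017, 2598 with no replicate block, and 1969 to 4125 with a library left out (1969 without Cd11cYFP replicate 1, 2403 without Cd11cYFP replicate 2). The reporter difference called 14 genes, 40 with DESeq2, 121 with no low-count filter, 23 with count splitting, 24 without likely doublets, 9 with MAFIA replicate 1 clustered together, 3 with 1 clustering round and 1 without the interferon cluster. Without the replicate block, the calls lost among the complement genes were those of C1qb between the DC classes and Cfp against Cd209a+ DCs. Cd55 between Cx3cr1+ macrophages and Cd209a+ DCs was lost with count splitting (0.50, edgeR adjusted p = 0.689). A single clustering round named no monocytes and gave no value for them. Shares of cells with a UMI depend on the depth to which cells are reduced, and 41 of 54 moved by over 1 SD. Adding the mixed cluster and leaving out the interferon cluster were chosen after seeing the data.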

Other observations

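Fibroblasts, of which the 2 Cd11cYFP libraries held 60 and 44, had the highest levels of several complement components. C3 was at 5195 and 6179 normalized CPM in Cd11cYFP replicates 1 and 2, and Serping1, the C1 inhibitor, at 2129 and 1159. Colec12, a collectin of the cell surface, was at 490 and 491, and C2 at 289 and 142. No test was made with so few cells.

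Cfp was higher in MAFIA replicate 2 than in both Cd11cYFP libraries in Timd4+ macrophages (1435 against 1372 and 1220 normalized CPM), Cx3cr1+ macrophages (518 against 323 and 276), monocytes (364 against 187 and 212), Ccr7+ DCs (34.6 against 22.02 and 14.6), plasmacytoid DCs (190 against 134 and 128), B cells (134 against 87.1 and 84.8) and thymocytes or T cells (21.5 against 9.80 and 9.57). Xcr1+ DCs (41.9 against 62.5 and 31.5), Cd209a+ DCs (207 against 235 and 131) and thymic epithelial cells (24.7 against 6.11 and 51.1) did not follow this order. The order was not particular to Cfp. C2 in B cells (13.9 against 8.25 and 8.09) and C3 in monocytes (510 against 177 and 210) also had it. In thymic epithelial cells C2 and C3 did not. Vsig4 went the other way in Timd4+ macrophages (5.44 against 20.5 and 13.6 normalized CPM), as did C6 (26.9 against 162 and 75.3). With 1 MAFIA library these differences were not tested.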
